A study of Saccharomyces cerevisiae with 4 samples.

Results

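COMPASS is the protein complex that methylates lysine 4 of histone H3 in budding yeast, and its 8 subunit genes are SET1, SWD1, SWD3, BRE2, SDC1, SPP1, SHG1 and SWD2. The rows of the deposited expression table that carry these 8 names were taken, out of 7130 rows in all, and every name matched 1 row. The table holds 4 libraries of total RNA depleted of ribosomal RNA from Saccharomyces cerevisiae in log phase in enriched medium. Of these, 2 libraries are labelled wild type (WT) and 2 carry Asr1-RING, a mutation in the RING domain of the ubiquitin ligase Asr1. The strain background, the exact allele and any other marker that both groups share are details that the sources used here do not give. The labels do not say whether replicates were separate cultures, so the spread behind every p-value may be a technical one.

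Set1 is the catalytic subunit and the only enzyme known to methylate lysine 4 of histone H3 in this yeast. It adds up to 3 methyl groups, and the trimethylated form is found at the start of transcribed genes. Ubiquitination of histone H2B by Rad6 and Bre1 and the PAF1 complex that travels with RNA polymerase II are needed for its full activity, and Set1 is also needed for silencing near telomeres. Asr1 is a RING-type ligase that has been reported to ubiquitinate RNA polymerase II.

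Values are FPKM, the fragments of a transcript per kilobase of its length and per 1000000 fragments mapped, so levels of genes of different length can be compared. From the steps between low values, each worth 1 fragment, the depth of the libraries was estimated at 41.4 to 47.8 in units of 1000000 fragments. At these depths the 8 genes rested on an estimated 85 to 1747 fragments each, and none was near the floor of 3 fragments, which is 0.0789 to 0.0911 FPKM for a row of 1000 bp. All rows of a WT library summed to 5369809 and 4870207 FPKM, those of a mutant library to 3742848 and 3777252. The median row did not share this gap, at 21.18 and 19.92 FPKM in WT against 21.38 and 21.66 in the mutant. ASR1 itself was at 7.05 and 6.34 FPKM in WT against 4.99 and 5.39 in the mutant, which does not check a change inside its coding sequence. Both groups had the transcripts of alpha cells. Their 4 marker genes summed to 7078 and 7229 FPKM in WT and to between 7417 and 7783 FPKM in Asr1-RING, against 87 to 121 FPKM for 7 a-cell markers over all libraries.

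Transcripts of all 8 subunits were measured in every library, and 1 of them, SWD2, differed between the groups past the threshold. SWD2 rose 1.49-fold in Asr1-RING. SDC1 had a 1.32-fold lower mean and SET1 a 1.21-fold lower mean, and neither passed. The other 5 had means within 1.17-fold of WT. Rows were tested with limma on log2(FPKM + 1), where a pseudocount of 1 understates changes of low genes. They were called at a Benjamini-Hochberg adjusted p under 0.05 over 6892 rows. Of all rows tested, 6.83% were called, and of rows of open reading frames (ORFs) 2.87%, and 1.89% of all rows were called higher, so 1 gene among 8 is no result about the complex as a group. At an unadjusted limma p under 0.05 there were 2 subunit genes, SWD2 and SDC1, against 26.4% of all rows and 1500 of 6517 ORF rows. No subunit gene was called lower by limma, against 4.95% of all rows but only 60 of 6517 ORF rows. The median log2 difference was -0.02 over the 8 genes, 0.02 over all rows and 0.03 over ORF rows.

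**Figure D1:**
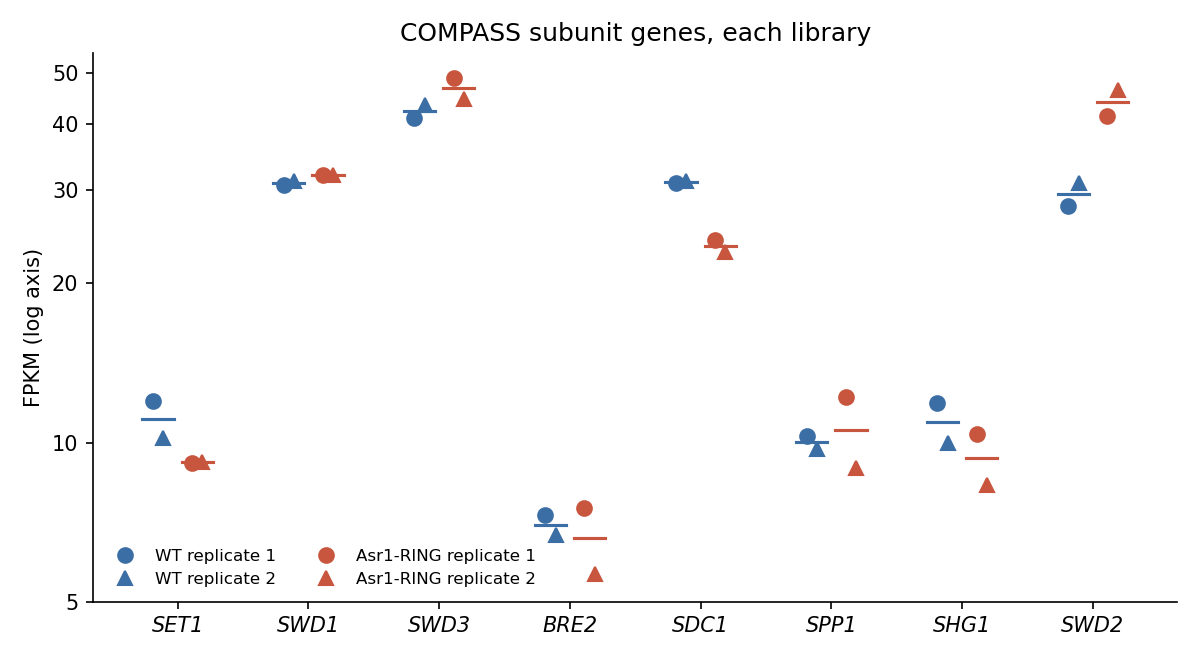
FPKM on a log axis of the 8 subunit genes in each library, with WT in blue, Asr1-RING in red, replicate 1 as circles, replicate 2 as triangles and group means as bars. The SWD2 points of Asr1-RING (41.5 and 46.4) lie above those of WT (28.0 and 30.9), and those of SDC1 (24.1 and 22.9) below (30.9 and 31.2).

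SET1 (YHR119W, chromosome VIII, 346046 to 349288, plus strand) encodes the methyltransferase itself. It was at 12 and 10.2 FPKM in WT against 9.17 and 9.18 in the mutant. Both mutant libraries lay below both WT libraries, and the WT libraries differed from each other by more than the nearer of them differed from the mutant. The group means were 11.1 ± 1.26 and 9.18 ± 0.00661 FPKM (SD, n = 2 each). The log2 difference was -0.25 (SE 0.114, 95% interval -0.53 to 0.03, limma adjusted p = 0.23). The 2 mutant values were closer to each other than their counting errors of 2.9% and 2.8%, from an estimated 1216 and 1268 fragments, so their SD understates the error of the mutant mean. Without WT replicate 1 the difference was -0.14.

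SWD1 and SWD3 encode WD40-repeat proteins that hold the complex together, and loss of either is known to abolish methylation of lysine 4. SWD1 (YAR003W, chromosome I, 155007 to 156287, plus strand) was at 30.7 and 31.2 FPKM in WT and 32.1 FPKM in both mutant libraries. This was the steadiest of the 8 genes, with a log2 difference of 0.05 and a 95% interval of -0.16 to 0.27 (limma adjusted p = 0.735). SWD3 (YBR175W, chromosome II, 582403 to 583350, plus strand) was at 41.1 and 43.5 FPKM in WT against 48.9 and 44.5 in the mutant. The mutant libraries lay above WT, but the gap to the nearer one was smaller than the spread within either group, and the log2 difference of 0.14 (-0.11 to 0.38) did not pass (adjusted p = 0.41). SWD3 shares 245 bp with YBR174C, an ORF row on the opposite strand at 4.27 to 5.9 FPKM in the group means. No source used here states how strand was handled, so reads of the shared stretch cannot be told apart.

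BRE2 and SDC1 encode partners that bind each other and are needed for the higher methylation states. BRE2 (YLR015W, chromosome XII, 175226 to 176743, plus strand) was at 7.29 and 6.69 FPKM in WT against 7.54 and 5.64 in the mutant. The WT values lay between the mutant values, and the log2 difference was -0.09 (-0.46 to 0.29, limma adjusted p = 0.752).

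SDC1 (YDR469W, chromosome IV, 1399008 to 1399535, plus strand) was at 30.9 and 31.2 FPKM in WT against 24.1 and 22.9 in the mutant. Both mutant libraries were below both WT libraries, and the gap between groups was several times the spread inside them. The means were 31.0 ± 0.222 and 23.5 ± 0.89 FPKM (SD, n = 2 each), 1.32-fold lower in the mutant. The estimated 337 to 478 fragments a library carry a counting error of 4.6% to 5.5%. The log2 difference was -0.39 (SE 0.091, 95% interval -0.61 to -0.16), below that of all but 4.7% of ORF rows, and its limma adjusted p of 0.0644 missed the threshold. It passed in 4 of 12 alternatives, among them median centring (-0.46, adjusted p = 0.045) and quantile normalization (-0.46, adjusted p = 0.0397). Without WT replicate 1 the adjusted p was 0.439.

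SPP1 and SHG1 are the accessory subunits. SPP1 (YPL138C, chromosome XVI, 291365 to 292426, minus strand) encodes a PHD-finger protein that binds methylated lysine 4 and is needed for full trimethylation. It was at 10.3 and 9.74 FPKM in WT against 12.2 and 8.97 in the mutant, so the mutant values lay on either side of WT (log2 difference 0.06, -0.33 to 0.44, limma adjusted p = 0.845). SHG1 (YBR258C, chromosome II, 729729 to 730157, minus strand) encodes a small subunit that most of the methylation does not require. It was at 11.9 and 9.99 FPKM in WT against 10.4 and 8.33 in the mutant, and the groups overlapped (log2 difference -0.20, -0.57 to 0.16, adjusted p = 0.41). SHG1 is the shortest of the 8 rows at 429 bp and rested on an estimated 85 to 128 fragments, a counting error of 8.9% to 11%. Its 3′ end lies 9 bp from that of POP4, a convergent gene whose mean was 14.3 FPKM in WT against 12.2 in the mutant.

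SWD2 (YKL018W, chromosome XI, 403745 to 404734, plus strand) encodes the essential WD40 subunit, which also belongs to APT, a module of the cleavage and polyadenylation factor that forms the 3′ ends of transcripts. It was at 28.0 and 30.9 FPKM in WT against 41.5 and 46.4 in the mutant. The lowest mutant library lay above the highest WT library by more than the spread within either group. The means were 29.5 ± 2.08 and 43.9 ± 3.44 FPKM (SD, n = 2 each). The log2 difference was 0.56 (SE 0.107, 95% interval 0.29 to 0.83, limma adjusted p = 0.0401), above that of 97.2% of ORF rows. An estimated 1005 to 1656 fragments a library carry a counting error of 2.5% to 3.2%. The difference stayed between 0.48 and 0.64 in 12 alternatives, but the call held in 5 of them. With a library left out it was lost for WT replicate 1 (adjusted p = 0.356), WT replicate 2 (0.178) and Asr1-RING replicate 2 (0.0552). It was also lost after median centring (0.0647) or quantile normalization (0.0583), with no filter (0.099) and with ORF rows alone (0.065).

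**Figure D2:**
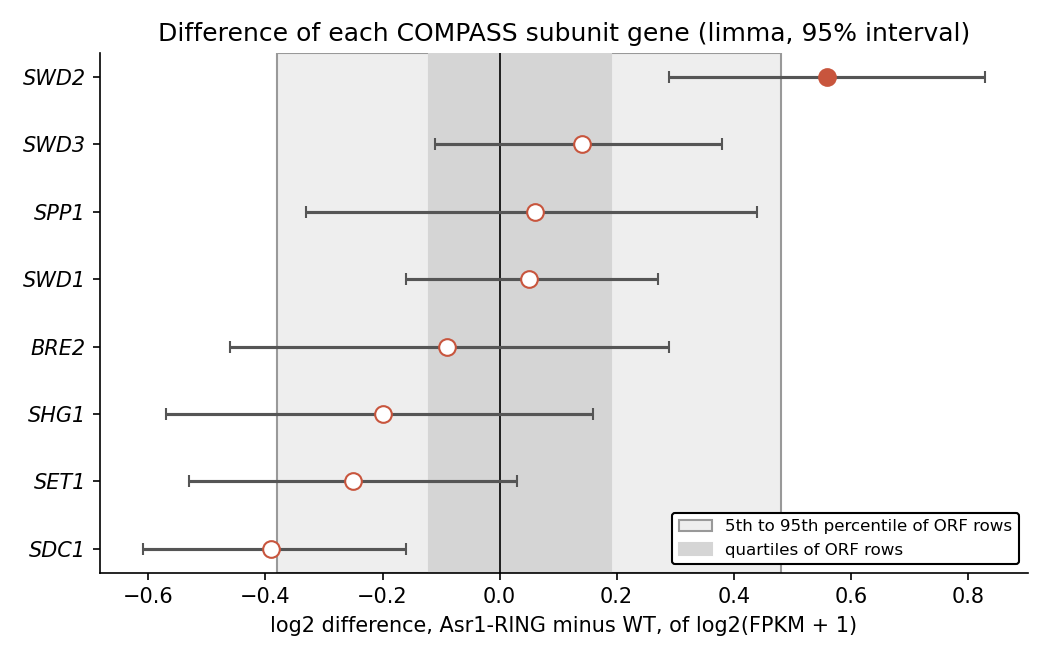
Log2 difference of each subunit gene, Asr1-RING minus WT, with the 95% interval from limma; the filled point passed at an adjusted p under 0.05. Dark grey spans the quartiles of ORF rows (-0.12 to 0.19) and light grey their 5th to 95th percentile (-0.38 to 0.48), which SWD2 at 0.56 exceeds and SDC1 at -0.39 just exceeds on the other side.

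**Figure D3:**
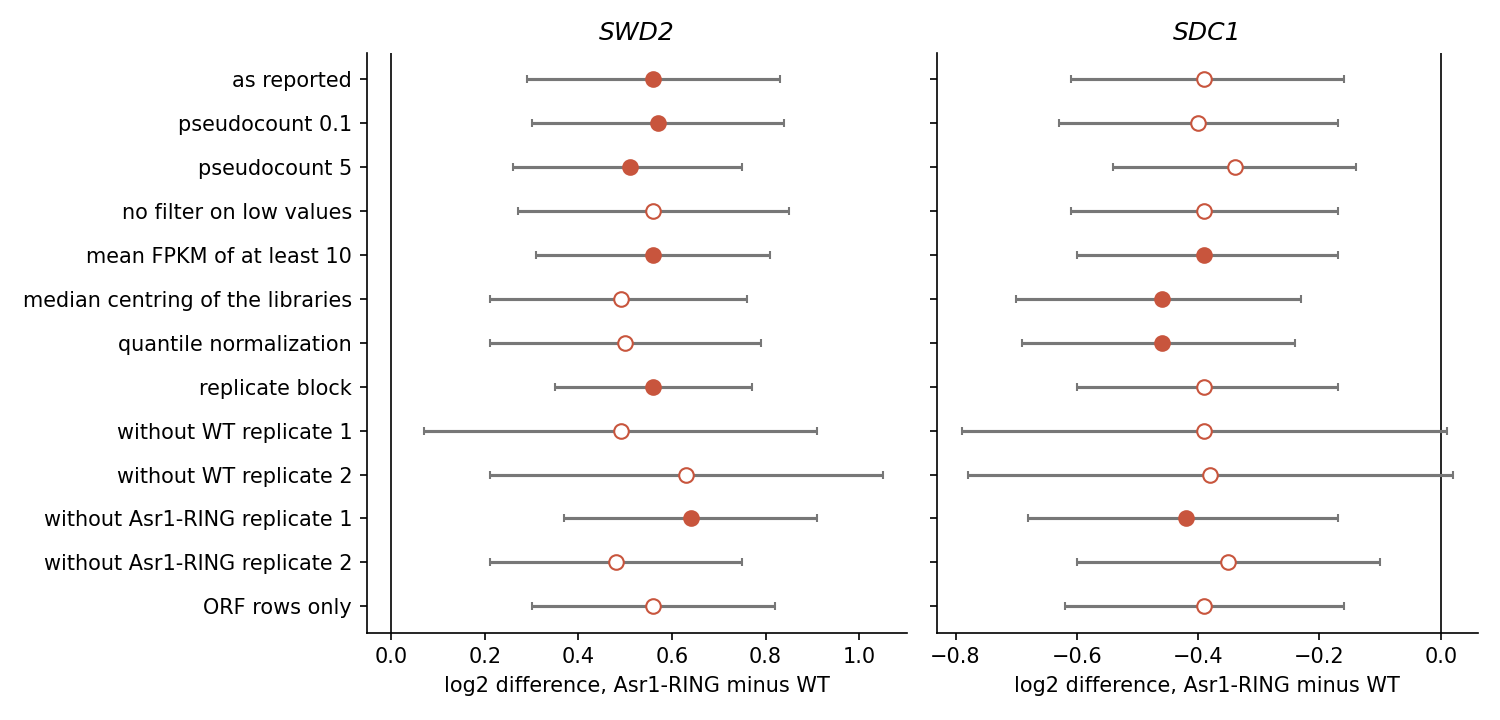
Log2 difference, Asr1-RING minus WT, with the 95% interval from limma for SWD2 (left) and SDC1 (right) as reported and under 12 alternative settings; filled points passed at an adjusted p under 0.05. Every SWD2 value is above 0 and every SDC1 value below 0, while SWD2 passed in 5 alternatives and SDC1 in 4.

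The promoters of the 3 genes with the largest differences or the catalytic role are shown because they are the sequences upstream of the transcripts that the comparison turns on. They are from the RefSeq genome R64, read through its own annotation, 250 bases before to 50 bases from the start codon on the plus strand, at chrXI:403852-404151 for SWD2, chrIV:1398765-1399064 for SDC1 and chrVIII:345793-346092 for SET1. The expression table uses another build, so these coordinates do not match those given with the values, although all 8 genes have the same length in both. Capitals mark matches to the motifs searched on both strands.
SWD2 promoter: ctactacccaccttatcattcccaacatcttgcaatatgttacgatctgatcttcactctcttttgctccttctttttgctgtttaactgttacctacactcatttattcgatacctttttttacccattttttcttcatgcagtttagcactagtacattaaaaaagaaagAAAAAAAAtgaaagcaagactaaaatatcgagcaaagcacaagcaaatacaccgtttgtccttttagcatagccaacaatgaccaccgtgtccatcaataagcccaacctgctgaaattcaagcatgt
SDC1 promoter: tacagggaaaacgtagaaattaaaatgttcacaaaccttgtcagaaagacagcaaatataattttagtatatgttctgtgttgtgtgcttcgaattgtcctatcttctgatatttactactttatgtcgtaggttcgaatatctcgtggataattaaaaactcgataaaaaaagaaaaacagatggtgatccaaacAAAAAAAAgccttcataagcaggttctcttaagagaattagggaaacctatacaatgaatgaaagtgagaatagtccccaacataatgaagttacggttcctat
SET1 promoter: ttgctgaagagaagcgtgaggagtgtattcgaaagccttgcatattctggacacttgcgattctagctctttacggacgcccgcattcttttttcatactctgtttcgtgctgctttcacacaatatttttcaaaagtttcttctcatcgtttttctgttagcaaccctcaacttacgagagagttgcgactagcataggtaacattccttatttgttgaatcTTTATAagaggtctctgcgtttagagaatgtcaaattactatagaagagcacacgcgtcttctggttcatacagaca
The search was for TATAAA (the TATA box), CACGTG (the core bound by Pho4 and Cbf1), TGACTC (Gcn4), TTACCCG (Reb1) and AAAAAAAA (a poly(dA:dT) tract). A tract of 8 adenines began 78 bases before the SWD2 start codon and 54 bases before that of SDC1, and 5 of the 8 genes had one, as did 32.3% of 6020 promoters. SET1 had TATAAA on the reverse strand 27 bases before its start codon, a motif found in 3 of the 8 genes and 45.4% of promoters. Reb1's motif was in SWD3 and SPP1 and in 7.06% of promoters, while CACGTG (2.91%) and TGACTC (7.96%) were in none of the 8 windows. These are matches of letters and show no binding.

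The order of the subunit levels fell into 2 tiers. In WT, SWD3 was highest at 42.3 FPKM, followed by SDC1 at 31.0, SWD1 at 30.9 and SWD2 at 29.5, whose libraries overlapped from one to the next. SET1 (11.1), SHG1 (10.9) and SPP1 (10) also overlapped, and BRE2 was lowest at 6.99 FPKM, clear of SPP1. Among ORF rows the WT means stood between the 20.8th percentile for BRE2 and the 69.4th for SWD3. In Asr1-RING the upper tier had another order, with SWD3 at 46.7 and SWD2 at 43.9 overlapping, then SWD1 at 32.1 and SDC1 at 23.5, each apart from its neighbours. The lower tier of SPP1, SHG1 and SET1 still overlapped, with BRE2 below. The 8 levels together summed to 172.2 and 173.4 FPKM in WT against 185.9 and 177.9 in the mutant. The part of that sum held by SWD2 was 16.3% and 17.8% in WT against 22.3% and 26.1% in the mutant. For SDC1 it was 17.9% and 18% against 13% and 12.8%.

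A ratio to SET1 within the same library does not depend on how libraries were scaled. SWD2 stood at 2.33 and 3.02 times SET1 in WT against 4.52 and 5.05 times in the mutant. The groups did not overlap, and the mean ratio was 1.79-fold higher in the mutant, between 1.59 and 2.06 with any 1 library left out. SWD3 stood at 3.42 and 4.24 times SET1 in WT against 5.33 and 4.85 times, and SWD1 at 2.55 and 3.04 against 3.5 in both, each without overlap. SDC1 overlapped, at 2.56 and 3.04 times SET1 in WT against 2.63 and 2.49 times in the mutant, so its level relative to SET1 did not separate the groups. For BRE2, SPP1 and SHG1 the mean ratios were 0.63, 0.905 and 0.981 in WT against 0.718, 1.15 and 1.02 in the mutant. In all, the groups did not overlap for 4 of 7 subunits (SWD1, SWD2, SWD3 and SPP1), and for 5 to 6 with any 1 library left out. Over all tested rows but SET1, 75.2% had ratios to SET1 that did not overlap (83% to 89.8% with a library left out), so 4 of 7 is no result about the subunits. All 7 ratios share SET1, which was lower in both mutant libraries, and no test was made of a ratio.

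**Figure D4:**
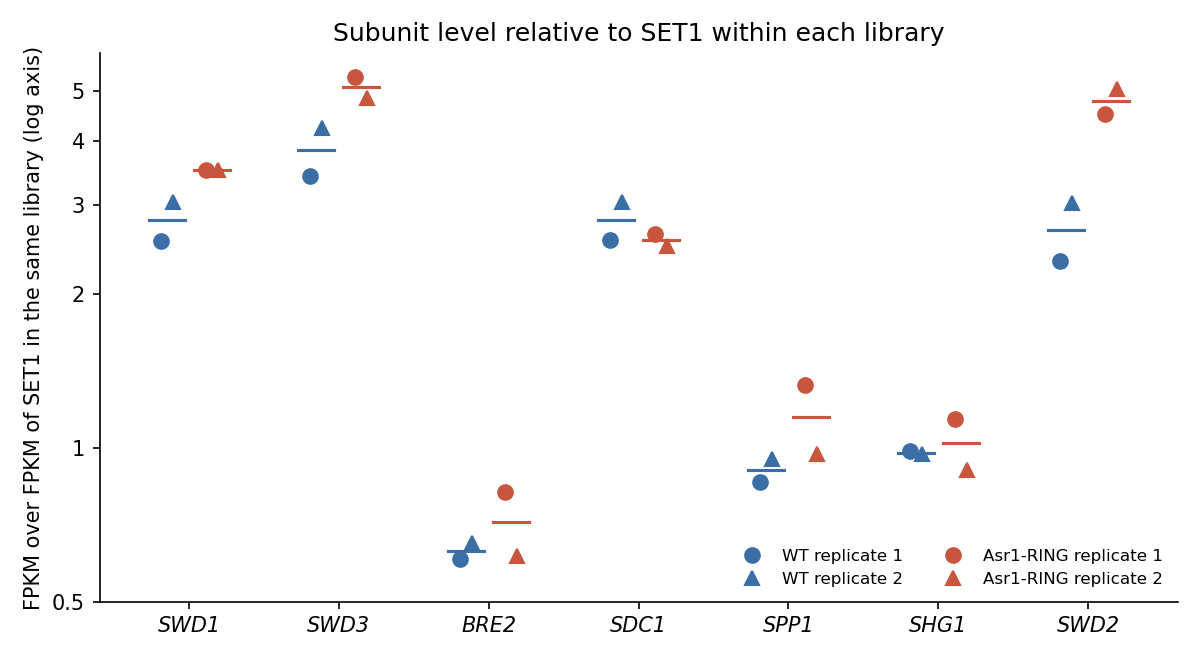
FPKM of each subunit gene divided by that of SET1 in the same library, on a log axis, with WT in blue, Asr1-RING in red, replicates as circles and triangles and group means as bars. SWD2 rises from 2.33 and 3.02 to 4.52 and 5.05, while SDC1 overlaps between groups.

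The mutant libraries lay wholly above WT for 3 subunit genes (SWD1, SWD2 and SWD3), as in 33% of all rows, and wholly below for 2 (SET1 and SDC1), as in 27.2%. In either direction 60.2% of all rows and 58.5% of ORF rows were separated in this way, so 5 of 8 is near the background. SPP1, BRE2 and SHG1 had the widest limma standard errors of the 8, 0.146 to 0.155. In each of these, Asr1-RING replicate 1 was above Asr1-RING replicate 2 (12.2 against 8.97, 7.54 against 5.64, and 10.4 against 8.33 FPKM). In bulk RNA a change in the transcripts per cell and a change in the share of cells that make them cannot be told apart.

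Of the 16 rows that flank the 8 genes, 0 were called by limma, against 6.83% of all rows and 2.87% of ORF rows. An unadjusted limma p under 0.05 was found for 2 of them, UGO1 and UME1, against 26.4% of all rows and 1500 of 6517 ORF rows. The flanking rows were examined after the subunit values had been seen. UGO1, whose 3′ end lies 163 bp from that of SDC1, had a mean of 14.2 FPKM in WT against 20.9 in the mutant (log2 difference 0.52, limma adjusted p = 0.0597), the opposite sign to SDC1. UME1, which lies 314 bp downstream of SPP1, had means of 6.24 and 9.56 FPKM (0.53, adjusted p = 0.0804). The neighbours of SWD2 on either side were low, with YKL018C-A at 3.07 and 3.5 FPKM and HCS1 at 4.09 and 4.19 FPKM in WT and Asr1-RING.

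The genes whose 4 values were most like those of SET1, by the root mean square difference of log2(FPKM + 1) over the 4 libraries, were ESF2 (0.0271), FMT1 (0.0519) and SWH1 (0.0689), out of 5117 ORF rows of at least 500 bp. ESF2 was at 12.5 and 10.2 FPKM in WT against 9.32 and 9.09 in the mutant. With so few libraries and so many rows close matches are easily found, and the measure is a description.

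Genes that act with COMPASS were measured as well, in 8 lists of 35 genes that write, read, remove or receive the mark or share SWD2. Of these 35, 0 passed the limma test, against 6.83% of all rows and 2.87% of ORF rows. An unadjusted limma p under 0.05 was found for 6, against 26.4% of all rows and 1500 of 6517 ORF rows. Over the 35 genes the median log2 difference was -0.01, with 17 above 0 and 18 below.

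Upstream of methylation, none of 3 genes of H2B ubiquitination and none of 5 genes of the PAF1 complex was called. The share called was 6.83% over all rows and 2.87% over ORF rows. RAD6, the ubiquitin-conjugating enzyme for H2B, was at 57.6 and 54.8 FPKM in WT against 65.9 and 64.9 in the mutant (log2 difference 0.22, limma adjusted p = 0.198). CDC73 of the PAF1 complex was at 15.3 and 14 FPKM against 17.4 and 18.5 FPKM (0.27, adjusted p = 0.159). The mutant values of RAD6 and CDC73 lay above WT, and neither difference passed. In the PAF1 complex 3 of 5 genes had a difference below 0, with a median of -0.16. The mutant values lay wholly below WT for PAF1 (17.8 and 15.8 against 14.9 and 13.1 FPKM, log2 difference -0.25) and LEO1 (4.7 and 3.83 against 3.76 and 3.28 FPKM, -0.22), and neither was called. Of all rows, 33% lay wholly above and 27.2% wholly below in this way.

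Among 5 genes of H2B deubiquitination none was called, against 6.83% of all rows and 2.87% of ORF rows. The outermost differences were those of UBP8 and SGF73. UBP8, the protease of the SAGA deubiquitination module, was at 24.6 and 23.3 FPKM in WT against 30.8 and 36.5 in the mutant (log2 difference 0.47, 95% interval 0.18 to 0.75, limma adjusted p = 0.0714). SGF73, which anchors that module to SAGA, was at 4.17 and 3.86 FPKM against 2.86 and 2.65 FPKM (-0.42, -0.72 to -0.12, adjusted p = 0.104). Neither gene passed.

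JHD2, the demethylase that removes the mark made by Set1, was at 3.97 and 4.5 FPKM in WT against 4.9 and 6.27 in the mutant (log2 difference 0.33, limma adjusted p = 0.224). SET2, the methyltransferase for lysine 36 of histone H3, had the smaller p of the 2 other methyltransferases (-0.26, adjusted p = 0.275). PHO23, YNG1 and SET3 encode PHD-finger proteins that bind methylated lysine 4, and the other subunits of the Set3 histone deacetylase complex act with SET3. By limma 0 of these 9 genes were called, against 6.83% of all rows and 2.87% of ORF rows. Against 26.4% of all rows, 1 of them had an unadjusted p below 0.05. This was HOS2, a deacetylase of the Set3 complex, at 15.6 and 16.2 FPKM in WT against 19.1 and 19.5 in the mutant (0.26, adjusted p = 0.145). The readers had the other sign, with log2 differences of -0.29 for PHO23, -0.25 for SET3 and -0.20 for YNG1.

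None of the 6 other genes of APT was called by limma, against 6.83% of all rows and 2.87% of ORF rows. An unadjusted limma p under 0.05 was found for 2, against 26.4% of all rows. Over the 6 genes the median log2 difference was -0.03 with a range of -0.30 to 0.27. PTI1 was at 14 and 13.7 FPKM in WT against 11.4 and 11.7 in the mutant (-0.24, limma adjusted p = 0.179). REF2 was at 6.78 and 5.88 FPKM against 4.78 and 5.11 FPKM (-0.30, adjusted p = 0.187). For both the mutant values were below WT, the opposite sign to SWD2. GLC7, the phosphatase of the module, was at 122.7 and 114.3 FPKM in WT against 164.7 and 124.3 in the mutant (0.27, adjusted p = 0.305). PTA1 had a log2 difference of 0.15, and both genes lay wholly above WT as for SWD2. Of the 6 genes, 2 lay wholly above WT and 2 wholly below, against 33% and 27.2% of all rows. These separations are therefore no result about APT. The mutant values of GLC7 lay further apart than the nearer of them lay from WT.

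The 4 histone genes that encode H3 and H2B had log2 differences of 0.16 to 0.22. With the values as deposited 0 passed, against 6.83% of all rows and 2.87% of ORF rows. HTB2, for H2B, had the smallest p (0.21, limma adjusted p = 0.237). After quantile normalization the list's median was 0.65 and 3 of the 4 were called higher, in a setting that called 9.04% of all rows. The 4 alpha-cell markers moved as well, from a median of 0.03 to 0.36 with 1 called. The histone values thus depend on the scaling, and this is not particular to them. HHT1 and HHT2 both encode H3, and HTB1 and HTB2 both encode H2B. No source used here states how reads that match both genes of a pair were counted.

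**Figure D5:**
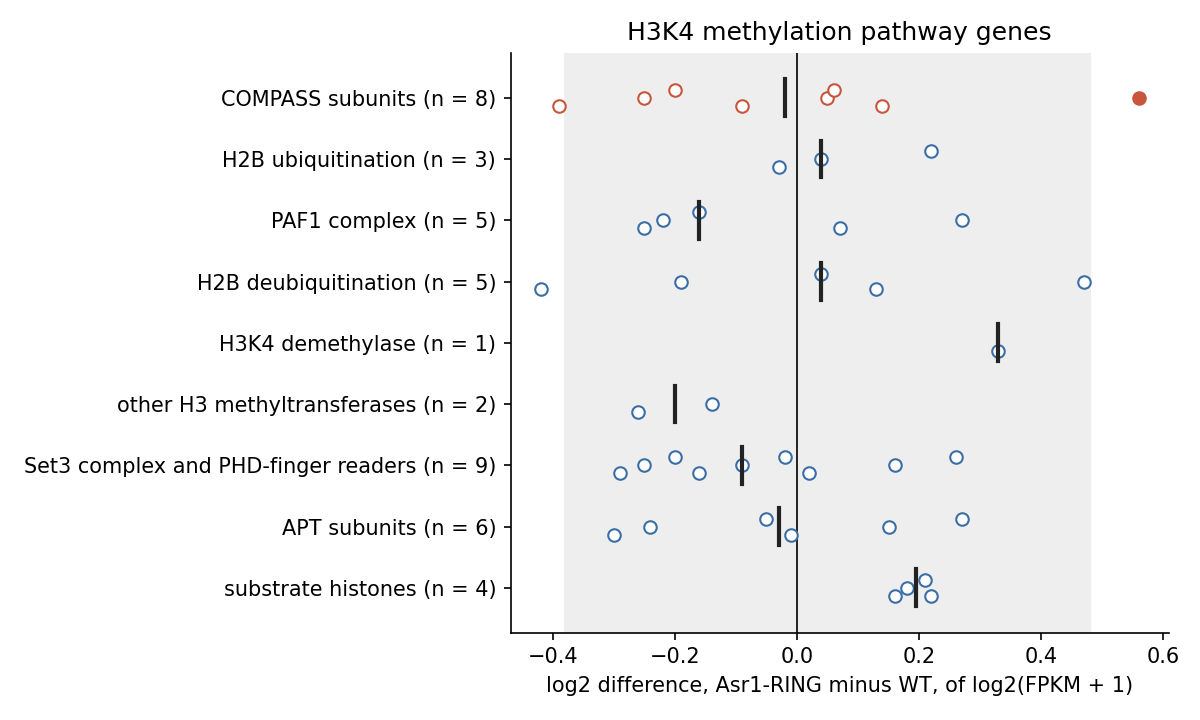
Log2 difference, Asr1-RING minus WT, of each gene of COMPASS (red) and of 8 lists of genes that act with it (blue), with list medians as bars and the 5th to 95th percentile of ORF rows in grey. SWD2 at 0.56 is the filled point, the one gene that passed at an adjusted p under 0.05; UBP8 (0.47) and SGF73 (-0.42) are the outermost of the other lists.

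Of 5 genes reported to depend on Set1, 1 was called, against 6.83% of all rows and 2.87% of ORF rows. The list was drawn up with the rise of PHO84 already known. PHO84, the phosphate transporter gene that Set1 has been reported to repress, rose from 18 and 19.1 FPKM in WT to 245.1 and 154.1 in the mutant (log2 difference 3.32, limma adjusted p = 0.0015). PHO5, which encodes an acid phosphatase and has been reported as repressed through the same mark, was at 37.8 and 35.3 FPKM against 47.8 and 37.9 FPKM (0.22, adjusted p = 0.349). GAL1, also reported as repressed by it, had a lower mean, 7.74 FPKM in WT against 5.77 in the mutant (-0.37, adjusted p = 0.109). GAL10, divergent from GAL1, had a log2 difference of -0.20 (adjusted p = 0.367). ERG11, of ergosterol synthesis, has been reported to need Set1 for its expression and had a difference of 0.20 (adjusted p = 0.22), called higher after quantile normalization. The 5 genes thus had 3 differences above 0 and 2 below, and any part of SET1 or SWD2 levels in these values was not tested.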

How the data were processed

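Total RNA depleted of ribosomal RNA was sequenced from 2 WT and 2 Asr1-RING libraries. The authors deposited 1 table of FPKM values, 1 column per library, made with TopHat2 and Cufflinks on the genome build sacCer2, per the submitters' processing notes. No source used here states versions, settings, annotation or strand handling. Titles gave the groups and replicate numbers, and the description labels tied the value columns to samples, leaving 0 columns unused. Coordinates with values are those of the deposited table, counted from 1.

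A count model does not suit FPKM and none was fitted. Depth was taken as the value that made the fragments of low ORF rows (350 to 3000 bp, 0.5 to 8.5 fragments) most often whole within 0.1, each length being reduced by 204 bp. Of 51 to 64 rows used, 85.9% to 90.2% were then whole. Fragment numbers and their counting errors are estimates from these depths and cover counting error only.

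Rows averaging 1 FPKM or more (6892, of which 6517 ORFs) were compared as log2(FPKM + 1) by limma with a mean-variance trend (residual degrees of freedom 2, prior 3.71), with p-values adjusted by Benjamini-Hochberg over all rows. All 8 subunit genes passed the filter. All adjusted p-values are limma's. The members and lists were chosen with earlier results of these data known. Named genes were the 8 subunits, ASR1, the called members and the member with the smallest p of each list, rows overlapping a subunit, and the 3 rows most like SET1. Beyond this rule SGF73, PAF1, LEO1, PHO23, SET3, YNG1, REF2, GLC7, PTA1, PHO5, GAL1, GAL10, ERG11 and flanking genes were named after their values were seen.

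On simulated data for this comparison (6892 rows, 200 changed, 5 runs) the test recovered 1.2% of rows changed 1.3-fold, 17.2% of 1.5-fold, 76.4% of 2-fold and 98.4% of 4-fold, with 4.5% of calls false. The simulated errors were drawn from the variances that limma itself had fitted, so the false share does not check the calls made here. In the data 471 rows were called, more than the 200 changed in the simulation, so recovery may differ. The alternatives tried were a pseudocount of 0.1 or 5, a minimum mean of 10 FPKM or none, median centring, quantile normalization, a replicate block, each library left out and ORF rows alone. Where a library was left out, the lone library of its group was assumed to vary like the others. Sequences are from the RefSeq assembly R64. Python 3.11.15, pandas 2.3.3, numpy 2.4.6, matplotlib 3.10.9, R 4.3.3 and limma 3.58.1 were used.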

Additional observations from a re-analysis of the deposited data

How the results depend on the processing

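The SWD2 difference kept its sign in all 12 alternatives run, as did those of SDC1, SET1, SWD3 and SHG1. The count of subunit genes called higher was 1 as reported and 0 with no filter, median centring, quantile normalization or ORF rows alone, and 0 to 1 with a library left out. The count called lower was 0 as reported, 1 (SDC1) with a mean of at least 10 FPKM, median centring or quantile normalization, and 0 to 1 with a library left out. Both directions together gave 1 as reported, 0 with no filter or ORF rows alone, 2 with a mean of at least 10 FPKM, and 0 to 2 with a library left out. Without WT replicate 1, WT replicate 2 or Asr1-RING replicate 2 no subunit gene was called, and without Asr1-RING replicate 1 both SWD2 and SDC1 were, a setting that called 19.4% of all rows against 6.83% as reported. With ORF rows alone the unadjusted limma p of SWD2 was lower (0.00148 against 0.00228) and its adjusted p was higher (0.065 against 0.0401). In that setting 0.905% of rows were called, against 6.83% as reported. Of the 341 rows called lower as reported, 60 were ORF rows. The adjusted p of SWD2 thus depends on which rows were tested with it. The causes of the other changes were not tested.

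The median log2 difference of the subunits ranged from -0.20 to 0.07 and the count of subunits without overlap from 5 to 8 with a library left out, the extremes -0.20 and 8 both without Asr1-RING replicate 1. With a library left out, 74.8% to 85.4% of all rows did not overlap (85.4% without Asr1-RING replicate 1), against 60.2% as reported. The count was 4 with median centring or quantile normalization. The differences that changed sign were SWD1 at -0.02 and -0.01 with median centring and quantile normalization, SPP1 at -0.02 with median centring and -0.15 without Asr1-RING replicate 1 (0.26 without replicate 2), and BRE2 at 0.10 without Asr1-RING replicate 2 (-0.27 without replicate 1), all of them not called under any setting. Of the 40 related genes 1 was called as reported, against 6.83% of all rows and 2.87% of ORF rows. After quantile normalization 5 were called, against 9.04% of all rows. The count also rose in some fits with a library left out, which leave 1 library in a group. PHO84 was called in every setting.

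Deviations of same-numbered libraries from their group means had r = -0.071 over all tested rows and 0.144 over ORF rows, across rows that are not independent. With 2 pairs and nothing in the labels that ties the numbers together, they were not treated as pairing. With the replicate block 1 subunit gene, SWD2, was called (adjusted p = 0.0315), and 237 rows were higher and 381 lower against 130 and 341. Over all rows the counts were 70 higher and 447 lower with median centring and 307 and 316 with quantile normalization. They were 21 and 182 with no filter, 216 and 358 with a mean of at least 10 FPKM, and 36 and 23 with ORF rows alone. With a library left out they ran from 16 to 781 higher and from 197 to 553 lower.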
